A study of Mus musculus with 6 samples.

Results

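The 9 complement genes analysed here were C3, C4b, Cfb, Cfd, C1ra, C1s1, Masp1, Serping1 and Cd55, chosen by name from the 55487 genes of the count table. The choice was made with earlier results of these data known. All 9 passed the filter on low counts, which left 19015 genes to test. Bulk RNA-sequencing compared 3 cultures of CD31-selected C57BL/6 mouse skin cells in normal glucose (5 mmol/L) with 3 in high glucose (20 mmol/L), each kept in its medium for 48 hours. The cells were isolated from the skin of 4 to 6 mice aged 2 to 3 months and maintained by passaging. Both groups had the same strain, tissue and selection, and no genetic modification is stated for either. The labels do not say whether the 3 cultures of a group came from separate isolations. The study's figure legends give n = 3 per group of mice, without stating how the cultures relate to mice or isolations. P values therefore measure the spread between these samples, which may be technical. The cells are labelled endothelial, but Pecam1, the gene of CD31, had only 9 to 19 counts per sample. In TMM-normalized CPM (counts scaled to library size), 14 endothelial markers summed to between 194 and 243 per sample. The sum of 11 fibroblast markers was between 38647 and 75444 CPM. The cultures are therefore named here by their selection and medium. Total counts lay between 120192466 and 146881356 per sample.

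Complement is a cascade of plasma and cell surface proteins that marks and lyses targets. In the classical pathway C1q binds a target and activates the proteases C1r and C1s, in the lectin pathway mannose-binding lectins, ficolins and collectins do so with the MASP proteases, and both routes cleave C4 and C2. The alternative pathway amplifies C3 cleavage through factor B and factor D. Host cells limit the cascade with soluble inhibitors, such as the C1 inhibitor encoded by Serping1, and with membrane proteins, such as CD55, which speeds the decay of C3 convertases. The liver makes most circulating complement, and stromal and endothelial cells also make several components, which inflammatory cytokines are known to raise.

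High glucose cultures had higher transcript levels of C3, C4b, Cfb, C1ra, C1s1, Serping1 and Cfd than normal glucose cultures, and lower levels of Masp1 and Cd55. With edgeR's quasi-likelihood test and Benjamini-Hochberg adjustment over all 19015 genes, 7 of the 9 genes were higher at an adjusted P value under 0.05, where 16.9% of all tested genes were called higher, and 2 of the 9 were lower, where 14.5% were called lower. With a log2 fold change of at least 1 also required, 5 of the 9 were higher, against 2.08% of tested genes, and 0 of the 9 lower, against 2.85%. The median log2 fold change of the 9 genes was 1.10, against 0.0062 for all tested genes. Because the 9 were chosen with earlier results known, contrasts with all tested genes cannot test complement genes as a group. The 30 other tested complement genes had a median of 0.032. In none of the 9 did the groups overlap, where 25.1% of tested genes had every high glucose sample above and 21.3% every high glucose sample below the normal glucose samples. The share of all counts that fell on these genes was 0.293% ± 0.0106 under normal and 0.547% ± 0.0150 under high glucose (SD, n = 3). Scaling by library size alone moved the all-gene median by -0.11 on the log2 scale and turned the split of calls from 2757 lower and 3212 higher into 4884 lower and 1819 higher, but moved none of the 9 genes across the threshold. In these bulk samples, fewer cells of a type and less RNA per cell cannot be told apart.

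**Figure D1:**
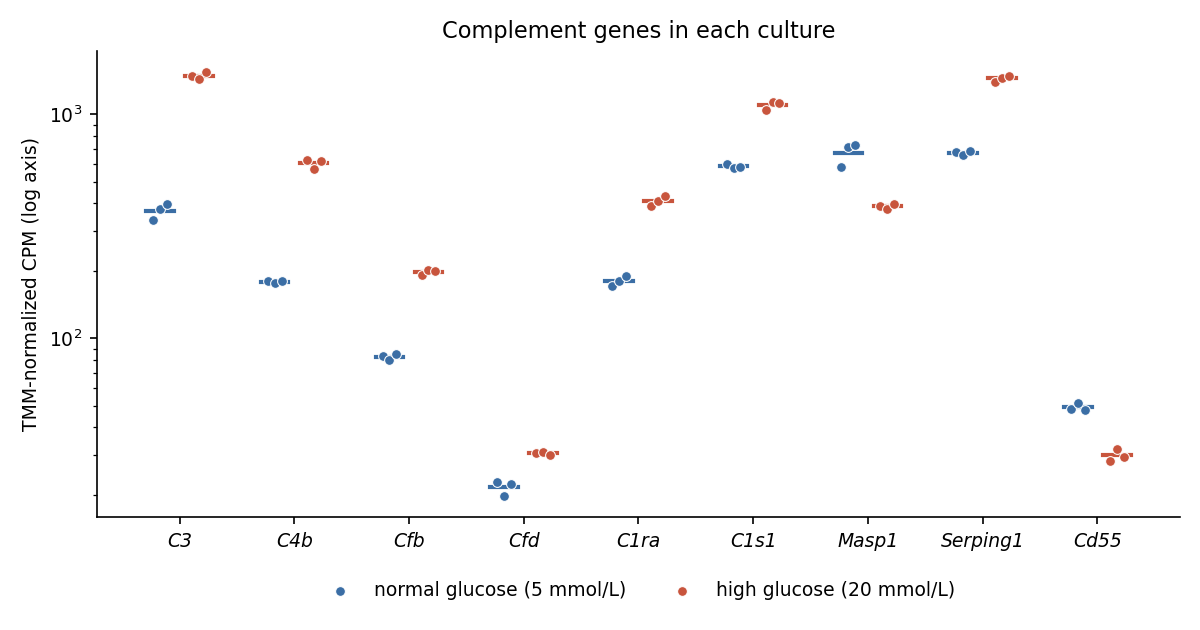
TMM-normalized counts scaled to library size (CPM, log axis) of the 9 complement genes in each culture, with 3 points and a mean bar for each glucose group. For 7 genes the 3 high glucose points lie above all normal glucose points, and for Masp1 and Cd55 they lie below them.

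C3, the component on which all activation routes converge, rose most among the 9. It had 336, 377 and 396 TMM-normalized CPM in normal glucose replicates 1, 2 and 3, and 1478, 1443 and 1545 in high glucose. All high glucose cultures thus lay near 4 times the normal glucose level, a 4.03-fold rise (log2 fold change 2.01, standard error 0.068, adjusted P = 4.12e-08). Of the 19015 tested genes, 49 had a larger log2 fold change. C3 (ENSMUSG00000024164) lies on the minus strand of chromosome 17 of GRCm38, at chr17:57203970-57228136.

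C4b encodes the C4 protein that the classical and lectin routes cleave, and rose next most. Its levels were 180, 176 and 181 CPM at normal glucose and 624, 572 and 621 at high glucose. The normal glucose cultures were almost identical, and the lowest high glucose culture, replicate 2, was still about 3 times higher. The log2 fold change was 1.76 (standard error 0.054, adjusted P = 2.95e-08), and 84 tested genes had a larger one. C4b (ENSMUSG00000073418) lies at chr17:34728380-34743882. The gene C4a, a close copy, rose from 10.8 ± 0.610 to 35.7 ± 1.65 CPM (SD, n = 3), with log2 fold change 1.73. In the GENCODE transcripts, 22.7% of the 75-base windows of C4b also occur in C4a, so part of the reads could be assigned to either gene. The count ratio of C4b to C4a was 16.6 ± 0.776 at normal and 17.0 ± 0.0710 at high glucose, and the groups overlapped. With both genes summed, the log2 fold change was 1.76.

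Cfb encodes factor B, the protease zymogen of the alternative pathway convertase. It had 83.6, 79.6 and 84.9 CPM at normal glucose and 191, 201 and 200 at high glucose, with little spread in either group. Its log2 fold change was 1.25 (standard error 0.052, adjusted P = 1.02e-07), or 2.39-fold. Cfb (ENSMUSG00000090231, chr17:34856374-34862518) lies 112491 bases from C4b, and 79.5% of its exon length is shared with the same-strand gene Gm20547. Gm20547 had between 104 and 458 counts per sample against at least 10467 for Cfb, and the log2 fold change of their sum was also 1.25. Cfd encodes factor D, the protease that cleaves factor B, and is also known as the adipocyte product adipsin. It had 22.8, 19.7 and 22.4 CPM at normal glucose and 30.7, 31.0 and 30.1 at high glucose. The difference was the smallest of the 7 rises but clear of the spread (log2 fold change 0.50, standard error 0.063, adjusted P = 1.84e-04). Cfd (ENSMUSG00000061780) lies at chr10:79890853-79892655.

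C1ra and C1s1 encode the C1r and C1s proteases of the C1 complex and lie 6901 bases apart on chromosome 6, at chr6:124512405-124523443 and chr6:124530345-124542359. C1ra (ENSMUSG00000055172) had 172, 180 and 191 CPM at normal glucose and 391, 410 and 433 at high glucose. Its log2 fold change was 1.19 (standard error 0.060, adjusted P = 3.59e-07). C1s1 (ENSMUSG00000038521) had 598, 575 and 582 CPM at normal glucose and 1041, 1136 and 1121 at high glucose. Its log2 fold change was 0.91 (standard error 0.053, adjusted P = 9.18e-07), below that of its partner. The close copies C1rb and C1s2 had log2 fold changes of 1.22 and 0.92. Of the 75-base windows, 40.1% of those of C1ra occur in C1rb and 13.0% of those of C1s1 in C1s2, and with the copies summed the log2 fold changes of C1ra and C1s1 were 1.19 and 0.91. C1s1 shares 576 exonic bases with the antisense gene Gm16567, which had at most 382 counts in any sample.

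Masp1 encodes the lectin pathway protease MASP-1 and, by splicing, MASP-3, which activates factor D. It was the only protease gene among the 9 that fell. Its levels were 579, 715 and 728 CPM at normal glucose and 390, 378 and 397 at high glucose. Normal glucose replicate 1 lay below the other two, yet well above every high glucose culture. The log2 fold change was -0.80 (standard error 0.082, adjusted P = 4.51e-05), a change of -42.4%, and without that replicate it was -0.91. Gene counts do not separate the splice products. Masp1 (ENSMUSG00000022887) lies at chr16:23449417-23520815.

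Serping1 encodes the C1 inhibitor, which inactivates C1r, C1s and MASP-1. It had 676, 660 and 684 CPM at normal glucose and 1391, 1457 and 1486 at high glucose. The log2 fold change was 1.10 (standard error 0.051, adjusted P = 1.91e-07), or 2.15-fold. Serping1 (ENSMUSG00000023224) lies at chr2:84765387-84775444. Cd55, the membrane regulator, had 48.2, 51.4 and 47.9 CPM at normal glucose and 28.3, 32.2 and 29.5 at high glucose. Its log2 fold change was -0.71 (standard error 0.062, adjusted P = 1.39e-05), a change of -39.0%. Cd55 (ENSMUSG00000026399) lies at chr1:130439027-130462744, and its close copy Cd55b, at 1.28 ± 0.199 and 0.873 ± 0.0566 CPM (SD, n = 3), showed a log2 fold change of -0.55 (adjusted P = 0.0188), which lost its call without normal glucose replicate 3 (adjusted P = 0.0711), without high glucose replicate 2 (adjusted P = 0.0528) and without high glucose replicate 3 (adjusted P = 0.0693).

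For single genes, an exact two-sided permutation test of 3 samples against 3 gave P = 0.1 for each of the 9, the smallest value this design allows. The adjusted P values above come from the fit across all genes.

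Promoters are shown for the gene that rose most, for C1s1 as a second gene that rose, and for Cd55, which fell. RefSeq promoter sequences (GRCm38.p6) matched 5 of the 9 genes, namely C3, C1ra, C1s1, Cfd and Cd55. The 250 bases before the start were searched on both strands for TTNNGNAA, a loose form of the C/EBP motif, for TTCNNNGAA, the STAT or GAS motif, for GAAANNGAA, a core of the interferon-stimulated response element, for TATAAA and for the kappaB consensus. Below they are printed 5′ to 3′ on the gene's strand, all minus, with matches in capitals, from chr17:57228137-57228386, chr6:124542360-124542609 and chr1:130462745-130462994.
C3: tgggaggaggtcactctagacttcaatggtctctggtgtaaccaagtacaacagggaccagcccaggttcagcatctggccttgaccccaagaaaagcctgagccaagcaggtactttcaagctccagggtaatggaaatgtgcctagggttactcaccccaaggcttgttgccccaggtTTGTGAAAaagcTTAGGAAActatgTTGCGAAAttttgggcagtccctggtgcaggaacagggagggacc
C1s1: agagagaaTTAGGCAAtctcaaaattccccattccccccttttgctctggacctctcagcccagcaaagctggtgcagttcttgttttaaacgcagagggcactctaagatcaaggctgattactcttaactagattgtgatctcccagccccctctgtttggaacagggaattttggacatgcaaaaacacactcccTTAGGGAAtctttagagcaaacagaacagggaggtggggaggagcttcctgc
Cd55: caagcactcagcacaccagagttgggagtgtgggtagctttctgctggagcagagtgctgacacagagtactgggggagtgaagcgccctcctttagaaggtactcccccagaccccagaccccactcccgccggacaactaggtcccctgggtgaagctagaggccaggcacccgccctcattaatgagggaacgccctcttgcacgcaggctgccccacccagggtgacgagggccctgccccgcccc
C3 held 3 matches to TTNNGNAA, at -70 to -63, -58 to -51 and -45 to -38 from the start. C1s1, from the start used here, and C1ra held 2 each, and Cd55 and Cfd held none. From another RefSeq start of C1s1, at 124542321, the window held 1. The RefSeq start of C1ra, at 124512621, lies inside the GENCODE span of the gene given above, and so do both of its matches. At least 1 match was present in 36.8% of 32851 promoter windows of this length and 3 or more in 2.61%. The cutoff of 3 is the number found in C3 and was applied to this motif alone. The 2.61% therefore cannot test whether C3 is unusual. None of the other motifs occurred in these windows of the 5 genes, where TTCNNNGAA was present in 7.02% of all windows, GAAANNGAA in 7.13%, TATAAA in 12.4% and the kappaB consensus in 3.90%. A match describes these letters and does not show binding.

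Levels of different genes were compared per exon length, as normalized CPM divided by exon length in kilobases (RPKM). Exon length pools the exons of all transcripts of a gene, and the order of genes depends on it. In normal glucose Serping1 had the highest level, with 290 ± 5.46 RPKM, and C1s1 followed with 187 ± 3.75. C3, Masp1 and C1ra came next, at 71.9 ± 5.93, 68.5 ± 8.38 and 60.6 ± 3.13 RPKM, and the ranges of neighbours in this trio overlapped. C4b, Cfb and Cfd were at 31.4 ± 0.422, 29.3 ± 0.970 and 23.4 ± 1.80, and Cd55 was lowest at 10.1 ± 0.401 (SD, n = 3). In high glucose Serping1 still led with 598, 627 and 639 RPKM in the 3 cultures and C1s1 followed with 351 ± 16.2, but C3 at 289 ± 10.1 was now close behind. C1ra, C4b and Cfb were at 138 ± 7.13, 106 ± 5.08 and 69.8 ± 2.02 RPKM, above Masp1 at 39.5 ± 0.980. Cfd and Cd55 stood at 33.2 ± 0.476 and 6.18 ± 0.409 RPKM. No neighbours in the high glucose order had overlapping ranges. On this scale Masp1 thus went from a level overlapping that of C3 to below that of Cfb, a gene it exceeded in normal glucose. In CPM, which is not divided by length, Masp1 stayed above Cfb in high glucose, at 388 and 197.

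**Figure D2:**
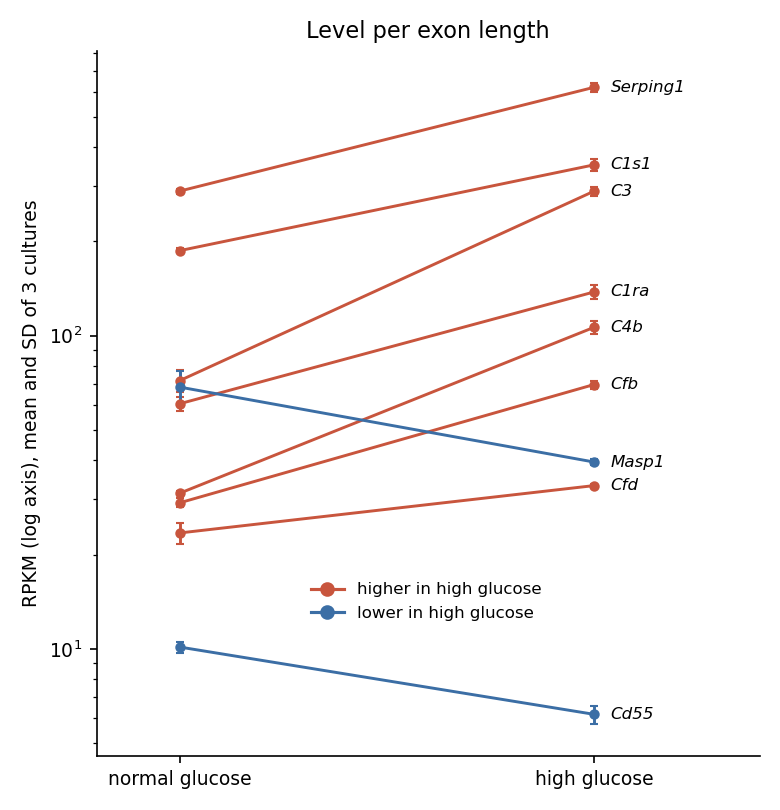
Level per exon length (RPKM, log axis) of the 9 genes in normal and high glucose, as mean and SD of 3 cultures, with lines joining the means of a gene. The line of Masp1 falls across those of C1ra, C4b and Cfb, while C3 climbs from 71.9 to 289 RPKM.

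Genes that rose did not rise in proportion. Within each library the count ratio of C1s1 to C1ra was 3.48, 3.20 and 3.06 at normal glucose and 2.66, 2.77 and 2.59 at high glucose. C1s1 also fell relative to its inhibitor gene Serping1, from a ratio of 0.869 ± 0.0169 to 0.761 ± 0.0164 (SD, n = 3), whereas the ratio of C1ra to Serping1 was 0.268 ± 0.0126 and 0.285 ± 0.00607. C3 outpaced C4b, with ratios of 2.07 ± 0.173 and 2.46 ± 0.0808, and Cfb, with ratios of 4.47 ± 0.392 and 7.55 ± 0.316. The ratio of Masp1 to C1s1 went from 1.15 ± 0.161 to 0.354 ± 0.0211. In each of these 6 ratios the groups did not overlap, which in an exact two-sided permutation test gives P = 0.1, the smallest possible, and 0.143 after Benjamini-Hochberg adjustment over the 10 ratios computed. The 3 ratios of a gene to its close copy overlapped between groups.

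**Figure D3:**
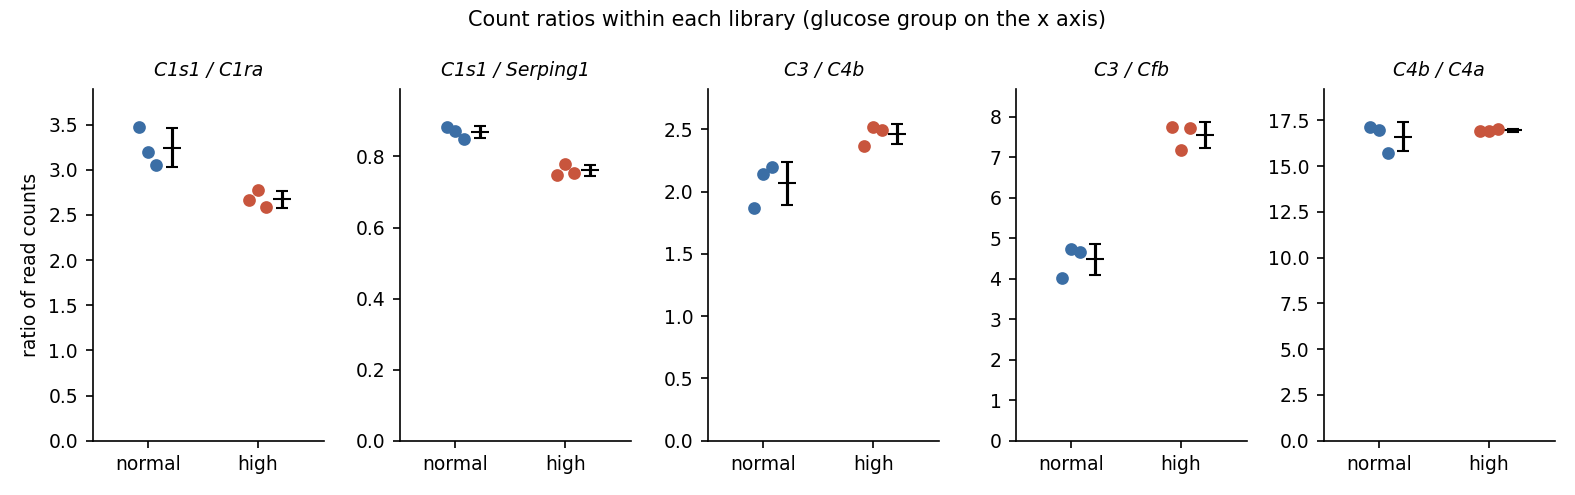
Ratio of read counts of 2 genes within each library, by glucose group, with 3 points for each group and the mean and SD beside them, on axes that start at 0. C1s1 falls relative to C1ra and Serping1, C3 rises relative to C4b and Cfb, and the ratio of C4b to its copy C4a overlaps between groups.

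The wider complement list held 48 further genes. Of these, 30 passed the filter, and 7 had 0 counts in every sample. Of the 30, 13 were called higher, where 16.9% of all tested genes were. Another 6 were called lower, where 14.5% of all tested genes were, and 11 were not called. The median log2 fold change of the 30 was 0.032, against 0.0062 for all tested genes. The 13 include the close copies C4a, C1rb and C1s2, and the 6 include Cd55b. These copies shared 19.7%, 49.5%, 16.3% and 16.0% of their 75-base windows with members, so part of their reads could be the members' own. Like the members, the list was chosen with earlier results known. These counts therefore cannot test complement genes as a group. In the classical pathway C1rb, C1s2, C4a and C2 were higher and C1rl, at 17.7 ± 0.838 and 19.0 ± 0.696 CPM, was not called. C2, the protease that joins C4 in the classical convertase, had 75.4, 69.1 and 73.8 CPM at normal and 103, 101 and 104 at high glucose (log2 fold change 0.50, adjusted P = 5.31e-05), and shares 42.8% of its exon length with Gm20547. The genes of C1q, the recognition subunit, were at the floor in both groups. C1qb and C1qc had 0 counts in every sample and C1qa had 3 counts in 1 normal glucose sample and 0 in the rest, where 3 counts correspond to at most 0.0258 CPM.

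Of the 6 tested lectin pathway genes, Masp1 among them, 0 were called higher, where 16.9% of all tested genes were. Another 3 were called lower, where 14.5% of all tested genes were. With so few genes, the absence of higher calls does not set this pathway apart. Colec12, a membrane collectin, went from 465 ± 19.8 to 390 ± 13.6 CPM (log2 fold change -0.25, adjusted P = 0.00561), and Colec10, a soluble one, from 0.937 ± 0.166 to 0.388 ± 0.0327 CPM (log2 fold change -1.27). Masp2, Fcna and Colec11 had at most 24 counts per sample and were not called. Mbl1 and Fcnb had 0 counts in every sample and Mbl2 at most 3. In the alternative pathway Cfp, which encodes the stabilizer properdin, had 2.71 ± 0.478 and 2.33 ± 0.575 CPM (SD, n = 3), and its log2 fold change of -0.21 had a 95% interval from -0.62 to 0.21.

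Among the terminal genes, whose products form the membrane attack complex, C6, C7 and C8g were higher. C7 had 3.80, 5.36 and 4.62 CPM at normal glucose and 17.0, 16.9 and 18.1 at high glucose (log2 fold change 1.91, adjusted P = 8.67e-07). C6 and C8g had log2 fold changes of 2.12 and 0.65 (adjusted P = 3.02e-07 and 0.00420). The C5 gene, Hc, had between 11 and 37 counts per sample and was not called, C8a had 0 counts in every sample, and C8b and C9 had at most 2 and 3.

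All 5 tested soluble regulators other than Serping1 were higher, where 16.9% of all tested genes were. Vtn encodes vitronectin, an adhesive protein that also blocks the terminal complex, and had a log2 fold change of 2.59. Clu, whose product clusterin also binds that complex, had 22.6 ± 1.99 and 32.3 ± 1.86 CPM (log2 fold change 0.51, adjusted P = 4.53e-04). Cfhr2, a gene of a multigene family whose members could share reads, had a log2 fold change of 1.57, and Cfi, the factor I protease gene, had 0.439 ± 0.186 and 1.35 ± 0.132 CPM (log2 fold change 1.62, adjusted P = 6.65e-04).

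Of the 6 membrane regulators other than Cd55, 0 were called higher, where 16.9% of all tested genes were. Another 2 were called lower, where 14.5% of all tested genes were. With so few genes, the absence of higher calls does not set them apart. Cd59a, whose product blocks membrane attack complex assembly, had 12.3, 11.3 and 12.4 CPM at normal and 8.08, 9.71 and 8.47 at high glucose (log2 fold change -0.45, adjusted P = 0.00240), and Cd55b was the other one called lower. Cr1l, which encodes the rodent C3 convertase inhibitor Crry, had 59.5 ± 1.44 and 56.0 ± 1.09 CPM, and its log2 fold change of -0.087 was not called (95% interval -0.20 to 0.022, adjusted P = 0.208), though library size scaling called it lower (-0.20, adjusted P = 0.00957). Cd46, Cd59b and Susd4 were not called. Among the receptor genes Cr2 was higher and Itgb2 and Cd93 were lower, all under 1 CPM in both groups. C1qbp was not called. C3ar1, the receptor gene of C3a, had at most 15 counts in any sample, C5ar1 had 0, and neither was tested.

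**Figure D4:**
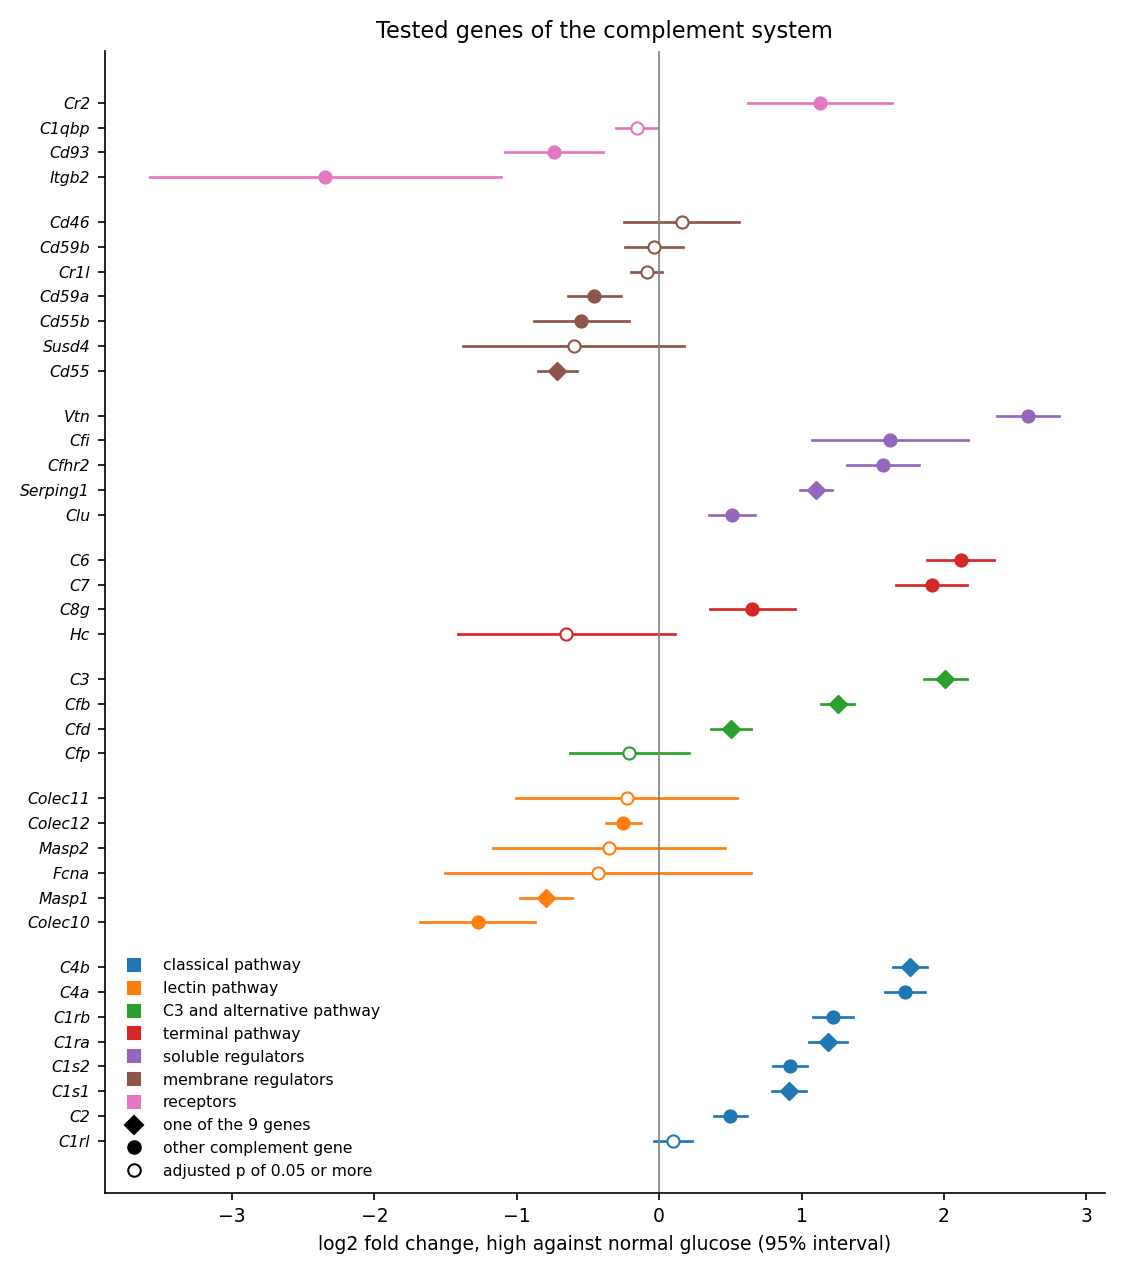
Log2 fold change in high against normal glucose, with 95% intervals, of 38 tested complement genes by role. Diamonds mark the 9 genes and open symbols an adjusted P value of 0.05 or more. Classical, terminal and soluble regulator genes lie mostly to the right of 0, and lectin and membrane regulator genes mostly to the left.

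Of 17 cytokines, receptors and transcription factors known to induce complement genes, 14 were tested, 7 were called higher and none lower. Over all tested genes, 16.9% were called higher and 14.5% lower. Il6, an acute phase cytokine, had 16.8, 16.2 and 14.3 CPM at normal glucose and 38.2, 40.3 and 41.5 at high glucose (log2 fold change 1.34, adjusted P = 3.85e-07). Il6st, which encodes its signalling receptor gp130, rose from 824 ± 88.1 to 1954 ± 34.4 CPM (log2 fold change 1.24), and Il1r1, the interleukin 1 receptor gene, had a log2 fold change of 0.53. Nfkb1 showed a log2 fold change of 0.30 (adjusted P = 9.10e-04). Cebpb, Stat3 and Tnfrsf1a had log2 fold changes of 0.33, 0.19 and 0.19 (adjusted P = 0.0125, 0.0183 and 0.0183), and each lost its call under library size scaling (adjusted P = 0.0678, 0.291 and 0.274). Calls also failed without single samples, for Cebpb without normal glucose replicate 3 or high glucose replicate 1 or 2 (adjusted P between 0.0562 and 0.0669), for Stat3 without any 1 of the high glucose replicates (0.0687 to 0.121) and for Tnfrsf1a without normal glucose replicate 2 or any 1 of the high glucose replicates (0.0537 to 0.114). Without the low-count filter, Stat3 and Tnfrsf1a had adjusted P values of 0.0574 and 0.0507. Irf1, which acts downstream of interferons, was not called (log2 fold change 0.063). Il1b had 0 counts in every sample, and Ifng and Tnf had at most 4. Whether any of these had a part in the complement changes was not tested.

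Markers of other cell types were read in the same libraries, where 16.9% of all tested genes were called higher and 14.5% lower. Cdh5, an endothelial junction gene, had 1.80 ± 0.0797 and 0.876 ± 0.0806 CPM (SD, n = 3). Of 14 endothelial markers, 10 were tested, Tek and Erg were higher and Cdh5, Flt1 and Egfl7 lower. Erg had few counts, with 5, 8 and 2 at normal and 14, 15 and 12 at high glucose. The summed level of the 14 was between 216 and 243 CPM in normal and between 194 and 200 CPM in high glucose. Most of that sum was Eng, at 155 ± 12.3 and 140 ± 3.48 CPM, and Flt1, at 55.3 ± 2.06 and 38.4 ± 0.153 CPM (SD, n = 3). Fibroblast markers were abundant and did not all move one way. Of 11 tested, 8 were higher, among them Col1a1 and Pdgfra (log2 fold changes 0.76 and 0.46), while Thy1, Twist2 and S100a4 were lower (log2 fold changes -0.40, -0.70 and -1.27). Their sum went from between 38647 and 41854 CPM to between 70480 and 75444 CPM, and most of that rise was in the collagen gene Col3a1, at 12421 ± 651 and 32515 ± 1662 CPM (SD, n = 3). Of 9 adipocyte markers, 5 of the 8 tested were higher and none was lower, with sums of 276 to 326 CPM and 328 to 365 CPM. Adipoq, the adiponectin gene, had a log2 fold change of 0.67 beside the 0.50 of Cfd. The largest part of the sums was Fabp4, at 169 ± 26.4 and 182 ± 17.0 CPM (SD, n = 3). Fabp4, Pparg and Slc2a4 were not called, with log2 fold changes of 0.11, 0.044 and -0.23. Of 10 macrophage markers, 6 were tested, Cd14 was higher and Cd68, Csf1r and Mrc1 lower, with sums of 17.7 to 20.0 CPM and 27.0 to 28.0 CPM. Only Cd14 contributed to the higher sum, at 9.47 ± 0.555 and 21.1 ± 0.0449 CPM (SD, n = 3). The defining genes Ptprc and Adgre1 were at or near 0 in both groups, with 16, 0 and 0 counts and 0, 3 and 0 counts at normal glucose and 0 in every high glucose sample. Of 8 keratinocyte markers, Krt5 alone among 3 tested was higher, on 2, 2 and 2 counts at normal and 23, 12 and 14 at high glucose. The sums of the 8 were 4.08 to 5.06 CPM and 4.66 to 5.04 CPM. Of 8 pericyte and smooth muscle markers, Rgs5 and Abcc9 were higher and Cspg4, Acta2 and Des lower among 7 tested, with sums of 904 to 990 CPM and 866 to 925 CPM. The part of these markers in the complement result was not tested.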

How the data were processed

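Poly(A) RNA of 6 cultures was sequenced. Per the labels and the study's methods, the authors used Trimmomatic for trimming, HISAT2 for alignment to GRCm38 and StringTie for read counts per gene, which they deposited unnormalized; versions, annotation release and strand setting are not given in the sources used here. The methods name an Illumina HiSeq and 75-base reads, the labels the DNBSeq platform.

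Of 55487 gene identifiers, 55141 had a symbol. Low genes were removed by filterByExpr (count at least 10, total at least 15) of edgeR 4.0.16 (R 4.3.3). TMM factors scaled the libraries, and quasi-likelihood P values, adjusted by Benjamini-Hochberg, were called at 0.05. Whether a count is a read or a fragment is not given in the sources used here, and floors (3 counts) cover counting error only. Exon lengths, positions and overlaps came from GENCODE M21 (GRCm38) and promoters from RefSeq. Replicates differed by more than sampling noise (the lowest chi-square per degree of freedom was 9.64).

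The members and gene lists were chosen with earlier results of these data known. Every member is named; of the other complement and inducer genes, called genes whose mean log2 CPM was 1 or more, the close copies and overlapping genes are named, and of the marker lists a few defining genes. Some results, including 1 of the 10 count ratios, are not reported here. All other genes named were chosen after their values were seen. Alternatives were other normalizations, tests (DESeq2 1.42.0 among them), filters and thresholds, halved counts, summed copies, the replicate block and each sample left out.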

Additional observations from a re-analysis of the deposited data

How the results depend on the processing

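Each of the 9 genes kept its direction and an adjusted p under 0.05 in all 18 alternative fits, 162 values in all. Library size scaling gave the lowest values for the 7 genes that rose, from 0.39 for Cfd to 1.89 for C3. Summing overlapping genes was chosen after seeing the data. A minimum absolute log2 fold change of 1 kept 5 of the 7 higher genes and 0 of the 2 lower ones, and left 14 higher and 2 lower genes of the wider complement list, against 20 and 8. Leaving out 1 sample kept 7 higher and 2 lower genes each time.

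The labels number replicates 1 to 3 in both groups without saying that they pair. Across genes, residuals of equally numbered samples correlated at -0.065, 0.040 and 0.045, so the numbers were not taken as pairs. With the replicate block, 7 members were called higher and 2 lower, and 20 and 8 genes of the wider list, the same counts as without it. The block gave log2 fold changes of 2.01 for C3 and -0.79 for Masp1. Not every sample correlated best with its own number. Depth does not limit the 9 genes, which had at least 2798 counts in every sample, but genes near 3 counts could not be compared.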
